A study of Mus musculus with 6 samples.

Results

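The Wnt ligands, their receptors and their secreted antagonists were followed in mouse tongue as 45 genes read by 54 probes, out of 21368 genes with a symbol on the array. A gene was included when a non-control probe's accession mapped to a Wnt, Fzd, Sfrp or Dkk symbol, to Lgr4, Lgr5 or Lgr6, to Rspo1, Rspo2 or Rspo3, or to Axin2 or Lef1, whatever its signal. The set holds 19 ligands, 3 R-spondins, 10 Frizzled receptors, 3 Lgr receptors, 4 secreted Frizzled-related proteins, 4 Dickkopf proteins and 2 target genes. Tongue RNA from 3 mice given doxycycline (DOX) for 2 weeks was compared with tongue RNA from 3 mice given none. All 6 mice were on the C57Bl6 background and carried iDek, a DOX-inducible Dek genotype that the labels call both ubiquitous and squamous cell-specific. Dek encodes a DNA-binding chromatin protein, and DOX, an antibiotic, turns on genes placed under an inducible promoter. The sex and age of the mice and the promoter that drives the transgene are not given in the sources used here. The series title speaks of a carcinogen, and the sample labels name none. Since both groups carry the transgene, DOX itself and the induction of Dek cannot be told apart.

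Wnt proteins are secreted lipid-modified signals. They bind Frizzled receptors together with the co-receptors Lrp5 and Lrp6, which stops the destruction complex from degrading beta-catenin, and beta-catenin then joins TCF/LEF factors at target genes such as Axin2. R-spondins acting through Lgr4, Lgr5 and Lgr6 keep Frizzled receptors at the cell surface, secreted Frizzled-related proteins bind Wnts outside the cell, and Dickkopf proteins of the Dkk1 type block Lrp5 and Lrp6. In the tongue, Wnt signalling is known for patterning the papillae and for the renewal of taste buds from Lgr5- and Lgr6-marked progenitors.

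Each array held 55681 non-control probes, of which 56.0% to 58.3% were well above background, and no spot was saturated. Signals are given below as normalised log2 signal, the log2 of the processed signal minus the 75th percentile of the same array, so 0 marks a bright probe and each step of 1 is a doubling. With 3 arrays a group, the array number limits how precise any value is. The Dek probe read 2.41, 2.41 and 2.27 in DOX mice and 2.30, 2.10 and 2.20 in no DOX mice, with overlap between the groups, and its log2 change of 0.17 ± 0.11 (SE, n = 3 and 3) did not reach the threshold (limma, adjusted p = 0.456). The tongue label was checked against 14 lists of cell markers. All listed markers of keratinocytes, skeletal muscle, fibroblasts, endothelium and Schwann cells were well above background on all 6 arrays, as were 6 of the 10 taste cell markers, while the taste markers Plcb2 and Pkd2l1 were so on none. The summed level of every list, which its brightest genes carry, overlapped between the groups, but single markers did not all overlap. For fibroblasts, a common source of Wnt antagonists, it lay between 6.94 and 7.58 in DOX mice and between 7.18 and 7.43 in no DOX mice. Yet 6 of the 7 fibroblast markers had the lower mean in DOX mice. The log2 change was -1.19 for Col3a1, -0.66 for Col1a2 and -0.44 for Col1a1 (limma, adjusted p 0.122, 0.244 and 0.331). It was -0.13, -0.04 and -0.03 for Dpt, Lum and Pdgfra, and 0.14 for Dcn. Of the 7, Col3a1 alone had groups that did not overlap, beside 12.6% of all features for that direction. For basal keratinocytes the summed level lay between 9.28 and 9.62 in DOX mice and between 9.23 and 9.68 in no DOX mice. Of those 7 markers, 5 had the lower mean in DOX mice, 4 of them without overlap, beside 12.6% of all features for that direction. Those 4 were Itga6 at -0.49, Col17a1 at -0.47, Krt15 at -0.46 and Trp63 at -0.15 (limma, adjusted p 0.133 to 0.501). Krt5 and Krt14 had higher means in DOX mice, by 0.06 and 0.43, with overlap. Of the 7 tested taste markers, 5 had the higher mean in DOX mice and 2 the lower. The groups did not overlap for 1 of them, beside 12.7% of all features for that direction. That was the taste receptor Tas1r2, dim at means of -2.28 in DOX and -3.45 in no DOX mice, with a log2 change of 1.17 (limma, adjusted p = 0.0991). The marker that passed the test was Cd8a of the T or NK cell list, lower in DOX mice (limma, adjusted p = 0.0241). It was well above background on 0 DOX and 3 no DOX arrays, and so entered the test through the no DOX arrays alone. That p-value rests on DOX readings not well above background. With those readings raised to the dimmest level well above background, Cd8a was at least 1.72-fold lower in DOX mice, a bound that was not tested. Of the 7 tested lingual salivary gland markers, 4 had the higher mean in DOX mice and 3 the lower, and none passed (limma, adjusted p 0.0648 to 0.420). Bpifa2, Car6, Lpo and Bhlha15 were higher by 1.82 to 6.51 on the log2 scale without overlap between the groups, beside 12.7% of all features for that direction. Dcpp1 had a log2 change of -0.76 without overlap, beside 12.6%, and Aqp5 and Muc5b of -0.98 and -0.28 with overlap. The part of these marker differences in the values below was not tested. In bulk tissue, fewer cells of a type and less RNA per cell cannot be told apart.

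Of the 45 genes, 34 (38 probes) cleared background on every array of DOX mice, of no DOX mice or of both, and entered the test, and 31 cleared it on all 6 arrays. None of the 34 passed limma's test at an adjusted p under 0.05, with p-values adjusted over the whole array, against a background of 0.404% of the 26256 genes and unnamed probes tested (0.278% higher and 0.126% lower in DOX mice). The smallest adjusted p was 0.0861, for Sfrp1, which was also the gene that passed at a looser adjusted p under 0.1, where the background was 2.85%. At an unadjusted p under 0.05 there were 11 members, or 32.4%, with 4 higher and 7 lower in DOX mice, beside 18.6% of all features, 9.05% higher and 9.58% lower. The groups did not overlap for 10 members, or 29.4%, with 4 higher and 6 lower, beside a background of 25.4%. That share lies near the background and is no result about the members. The count of 11 fell to 5 when DOX replicate 1 was left out, to 7 when no DOX replicate 1 was, and to 6 when no DOX replicate 2 was.

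In size, all 34 log2 changes were under 2-fold in either direction and ran from -0.99 to 0.84. The mean was higher in DOX mice for 15 members, or 44.1% beside 49% of all features, and lower for 19, and the median log2 change was -0.04, beside -0.01 over all features. Those 15 include Wnt3, Rspo3 and Wnt10b, which entered the test through the DOX arrays alone and were well above background on 2 no DOX arrays. Over the 31 members well above background on all 6 arrays the median was -0.16, beside -0.0013 over all features filtered so. The changes of all 34 members from their lower to their upper quartile ran from -0.47 to 0.21, and those of all features from -0.19 to 0.17, a narrower range. The 95% interval of the change lay wholly inside 2-fold for 23 members, or 67.6%, beside 83.8% of all features. By role, the medians were 0.04 for 12 tested ligands, 0.41 for 2 R-spondins, -0.17 for 10 Frizzled receptors, -0.14 for 2 Lgr receptors, -0.62 for 4 secreted Frizzled-related proteins and -0.55 for 2 Dickkopf proteins. These describe small lists in which nothing passed the test, and no direction is read from them.

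**Figure D1:**
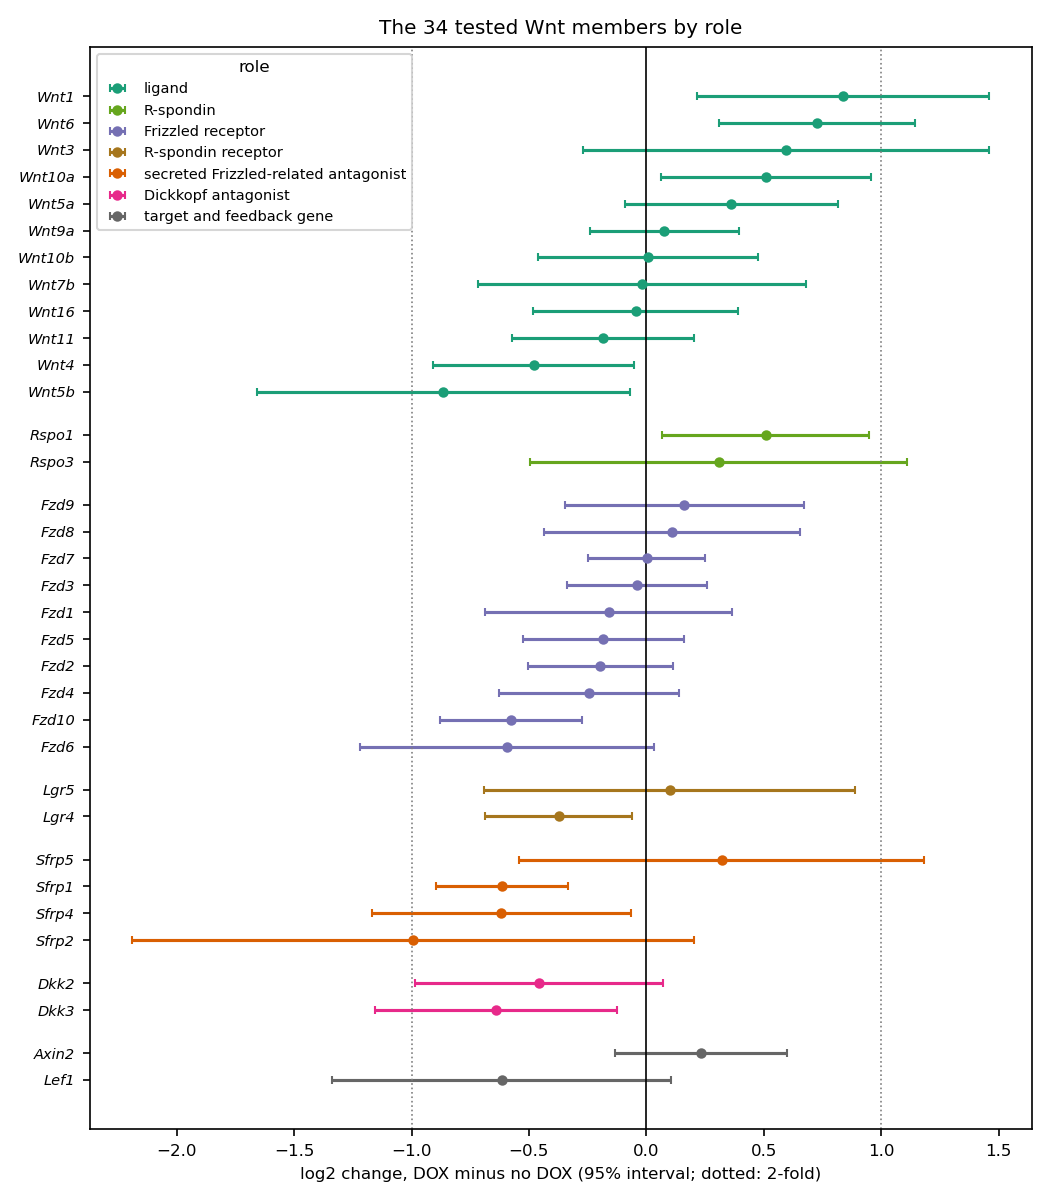
Log2 change of each tested Wnt member (DOX minus no DOX, points) with its 95% interval (bars), grouped by role, with dotted lines at 2-fold in either direction. The changes run from -0.99 for Sfrp2 to 0.84 for Wnt1, and 3 of the 4 secreted Frizzled-related proteins, both Dickkopf proteins and 7 of the 10 Frizzled receptors lie left of 0.

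The 4 promoters printed here belong to the members with the smallest p in each direction whose groups did not overlap and for which the sequence table had an entry. They are shown because beta-catenin reaches target genes through TCF/LEF factors, some of which control Wnt components themselves. Each runs 5′ to 3′ from 250 bases before to 50 bases after the transcription start (RefSeq, build GRCm38.p6, all on the plus strand), and capitals mark the letters CTTTG or, on the other strand, CAAAG, which form the core of the TCF/LEF site. The windows are chr5:128600856-128601155 for Fzd10, chr2:109917397-109917696 for Lgr4, chr1:74771642-74771941 for Wnt6 and chr15:98789607-98789906 for Wnt1.
Fzd10: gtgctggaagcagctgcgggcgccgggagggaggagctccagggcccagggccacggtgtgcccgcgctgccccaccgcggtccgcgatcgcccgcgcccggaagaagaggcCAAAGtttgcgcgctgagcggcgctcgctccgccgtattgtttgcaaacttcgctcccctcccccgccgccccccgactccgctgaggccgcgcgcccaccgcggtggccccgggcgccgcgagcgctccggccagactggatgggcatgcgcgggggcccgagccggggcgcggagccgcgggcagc
Lgr4: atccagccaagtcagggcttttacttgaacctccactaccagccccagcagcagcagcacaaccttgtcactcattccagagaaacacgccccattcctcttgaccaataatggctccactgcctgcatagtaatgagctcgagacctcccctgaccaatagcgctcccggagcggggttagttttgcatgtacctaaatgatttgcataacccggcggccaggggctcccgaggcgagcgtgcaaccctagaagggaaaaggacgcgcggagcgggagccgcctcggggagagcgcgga
Wnt6: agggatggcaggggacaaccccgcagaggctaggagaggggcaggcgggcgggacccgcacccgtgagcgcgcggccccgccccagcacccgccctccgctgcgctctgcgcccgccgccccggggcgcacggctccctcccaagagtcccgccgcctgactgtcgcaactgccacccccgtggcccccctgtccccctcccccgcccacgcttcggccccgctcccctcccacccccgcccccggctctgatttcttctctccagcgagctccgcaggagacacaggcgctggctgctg
Wnt1: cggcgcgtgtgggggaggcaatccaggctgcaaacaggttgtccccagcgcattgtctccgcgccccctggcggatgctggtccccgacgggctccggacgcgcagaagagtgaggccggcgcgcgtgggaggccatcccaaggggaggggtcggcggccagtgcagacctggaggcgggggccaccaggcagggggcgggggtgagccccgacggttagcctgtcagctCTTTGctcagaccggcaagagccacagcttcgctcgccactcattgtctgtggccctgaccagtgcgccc
The core letters occur once in the Fzd10 window and once in the Wnt1 window, and they are not in the Lgr4 and Wnt6 windows. G and C make up 77.7% of the Fzd10 window, 76.7% of the Wnt6 window and 70.7% of the Wnt1 window, against 58.3% of the Lgr4 window. The table held 36 windows for 30 of the 45 members, and 17 of these 36 (47.2%) hold CTTTG or CAAAG, beside 53.9% of all 32851 windows. The longer form CTTTGA or TCAAAG, which overlaps the shorter one, is in 5 member windows (13.9%), those of Dkk1, Fzd1, Lef1, Wnt11 and Wnt5b, beside 5257 of all 32851 windows. A match describes the letters of the window and not a site in use.

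Among the ligands, 3 had groups that did not overlap, each with the higher values in DOX mice, beside a background of 12.7% for that direction. Wnt6, an epithelial ligand, read -0.37, 0.21 and -0.09 in DOX mice and -0.63, -0.96 and -0.84 in no DOX mice. All DOX values lay above all no DOX values, with DOX replicate 2 the highest. Its log2 change of 0.73 ± 0.17 (SE), a 1.65-fold higher mean with a 95% interval of the log2 change from 0.31 to 1.14, did not pass (limma, adjusted p = 0.118). Wnt1, the ligand first found as a mammary tumour virus integration site and known for its role in midbrain formation, read 0.96, 1.76 and 0.83 in DOX mice and 0.18, 0.31 and 0.55 in no DOX mice. DOX replicate 2 stood well above the other DOX arrays, and the groups did not overlap. The log2 change was 0.84 ± 0.26 (adjusted p = 0.174) and 0.55 without that array, and the gene's other probe did not clear background on any of the 6 arrays. Wnt10a, whose human mutations cause ectodermal dysplasia with missing teeth and a smooth tongue, read 4.22, 3.88 and 3.85 in DOX mice and 3.27, 3.33 and 3.82 in no DOX mice. The gap between DOX replicate 3 and no DOX replicate 3 was narrow, and the log2 change was 0.51 ± 0.19 (adjusted p = 0.221).

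Wnt6 and Wnt10a are neighbours on chromosome 1 with no other protein-coding gene between them in the RefSeq gene table, and both had the higher mean in DOX mice. The set holds 4 such neighbour pairs. Wnt10b and Wnt1 on chromosome 15 had log2 changes of 0.01 and 0.84. The pairs Wnt3a with Wnt9a and Wnt9b with Wnt3 lie on chromosome 11, and there Wnt3a and Wnt9b were too dim to be tested.

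The ligands with the lower means in DOX mice were led by Wnt5b and Wnt4. Wnt5b, a ligand of the beta-catenin-independent branch, read -0.70, -0.41 and 0.55 in DOX mice and 0.81, 0.86 and 0.36 in no DOX mice. DOX replicate 3 lay inside the no DOX range while the other DOX arrays lay below it. The log2 change was -0.86 ± 0.33, a 1.82-fold lower mean with an interval from -1.66 to -0.07 (limma, adjusted p = 0.238). Wnt4, which acts in kidney tubule and female reproductive tract formation, read 4.97, 5.08 and 5.46 in DOX mice and 5.43, 5.64 and 5.88 in no DOX mice. The groups overlapped through DOX replicate 3 and no DOX replicate 1, and the log2 change was -0.48 ± 0.18 (adjusted p = 0.228), with -0.29 at the gene's other tested probe. Wnt5a, the close relative of Wnt5b that signals through Ror2, had the opposite sign. It read 1.20, 0.91 and 0.89 in DOX mice and 0.39, 0.51 and 1.01 in no DOX mice, where no DOX replicate 3 exceeded 2 of the DOX arrays, for a log2 change of 0.36 ± 0.19 (adjusted p = 0.356), and 0.55 without that array.

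The 6 ligands left had log2 changes between -0.18 for Wnt11 and 0.59 for Wnt3 (limma, adjusted p 0.427 to 0.991), and their groups overlapped. Wnt3 read -4.02, -3.87 and -3.93 in DOX mice and -5.35, -4.45 and -3.81 in no DOX mice, and was well above background on 3 DOX arrays and 2 no DOX arrays. Its log2 change ran from 0.19, with no DOX replicate 1 left out, to 0.96, with no DOX replicate 3 left out. It was 0.049 under normexp, a background correction run here with an offset of 50. That offset by itself shrinks the log2 changes of dim probes. Wnt7b, which signals in several epithelia, read 0.20, 0.62 and 1.39 in DOX mice, against 0.68, 0.71 and 0.89 in no DOX mice. Its log2 change of -0.02 ± 0.29 leaves an interval from -0.72 to 0.68 and ran from -0.34 to 0.25 when 1 array was left out. Wnt9a, Wnt10b and Wnt16 had log2 changes of 0.08, 0.01 and -0.05, and those of Wnt10b and Wnt16 turned sign when single arrays were left out.

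**Figure D2:**
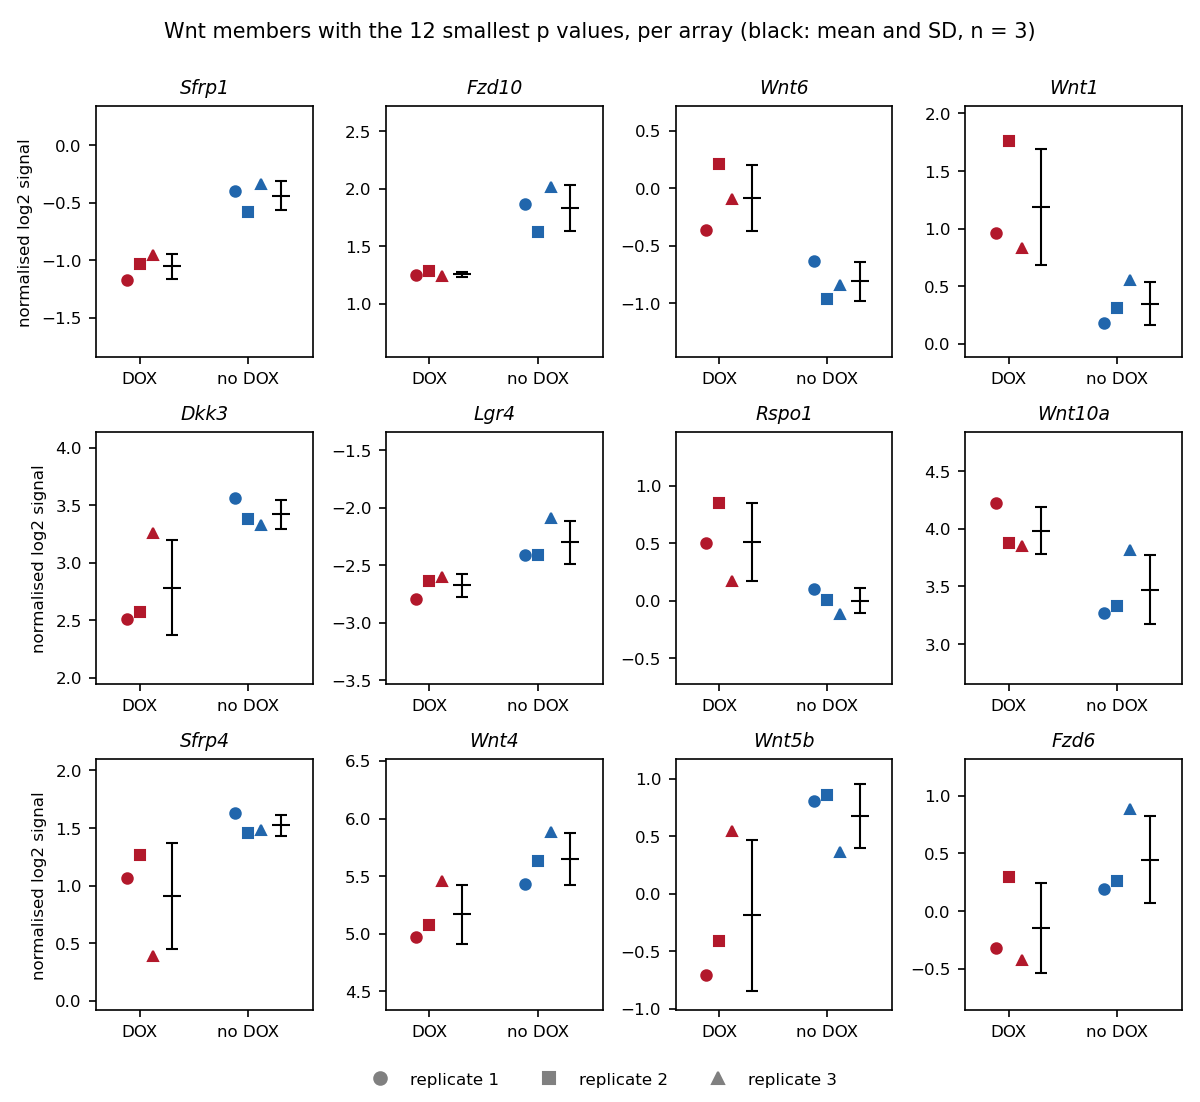
Normalised log2 signal of the 12 members with the smallest p, 1 point per array with DOX mice left and no DOX mice right in each panel, marker shape giving the replicate number and black marks the mean and SD (n = 3). The panels share the length but not the position of their axis. The groups do not overlap for Sfrp1, Fzd10, Wnt6, Wnt1, Dkk3, Lgr4, Rspo1, Wnt10a and Sfrp4, and overlap for Wnt4, Wnt5b and Fzd6.

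Of the R-spondins, which strengthen Wnt signalling, Rspo1 read 0.50, 0.85 and 0.17 in DOX mice and 0.10, 0.01 and -0.11 in no DOX mice. The groups did not overlap, beside 12.7% of all features for that direction, although DOX replicate 3 was close to no DOX replicate 1. The log2 change of 0.51 ± 0.18, a 1.42-fold higher mean, did not pass (limma, adjusted p = 0.219) and was 0.34 without DOX replicate 2. Rspo3 was dim and well above background on 3 DOX arrays and 2 no DOX arrays. Its log2 change was 0.31 ± 0.34 with overlap (adjusted p = 0.682), between 0.03 and 0.61 when 1 array was left out and 0.0091 under normexp. Rspo2 did not clear background on any of the 6 arrays. For the receptors of these proteins, Lgr4, the most widely expressed of them, read -2.79, -2.64 and -2.60 in DOX mice and -2.41, -2.41 and -2.09 in no DOX mice. Every DOX value lay below every no DOX value, beside 12.6% of all features for that direction. The log2 change was -0.37 ± 0.13 (interval -0.69 to -0.06, limma, adjusted p = 0.209). With normexp, whose offset of 50 shrinks the log2 changes of dim probes, it was -0.13. Lgr5, a marker of stem cells in the intestine and of taste progenitors in the posterior tongue, read -3.86, -3.03 and -2.87 in DOX mice and -3.27, -3.85 and -2.94 in no DOX mice. The groups lay across each other, and the log2 change of 0.10 ± 0.33 has an interval from -0.69 to 0.89 (adjusted p = 0.911), and its sign turned when single arrays were left out. Lgr6, which marks progenitors in skin and tongue, was dim at -5.07, -4.70 and -5.88 in DOX mice and -4.57, -5.06 and -4.81 in no DOX mice, was well above background on 1 no DOX array alone, and was not tested.

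All 10 Frizzled receptors on the array were bright enough to be tested, and 7 of them had the lower mean in DOX mice. Fzd10 read 1.25, 1.28 and 1.24 in DOX mice and 1.86, 1.62 and 2.01 in no DOX mice. The DOX arrays were nearly identical and all lay below the no DOX arrays, and this was the only Frizzled gene whose groups did not overlap, beside a background of 12.6% for that direction. Its log2 change of -0.58 ± 0.13, a 1.49-fold lower mean with an interval from -0.88 to -0.27, did not pass (limma, adjusted p = 0.103). Fzd6, known from the mouse for orienting hairs through planar cell polarity, read -0.32, 0.30 and -0.42 in DOX mice and 0.19, 0.27 and 0.88 in no DOX mice. DOX replicate 2 exceeded 2 of the no DOX arrays, and the log2 change was -0.60 ± 0.26 (adjusted p = 0.286), and -0.38 without no DOX replicate 3. Fzd4, which also binds Norrin in the retinal vasculature, read 1.76, 2.19 and 1.64 in DOX mice and 2.10, 2.16 and 2.06 in no DOX mice, with overlap and a log2 change of -0.24 ± 0.16 (adjusted p = 0.460), which was -0.41 without DOX replicate 2 and -0.13 without DOX replicate 3.

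For the other Frizzled genes the log2 changes ran from -0.20 for Fzd2 to 0.16 for Fzd9, all with overlapping groups (limma, adjusted p 0.461 to 0.998). Fzd7, a receptor used by many epithelial and embryonic stem cells, was the most closely bounded. It read -0.17, -0.10 and -0.26 in DOX mice and -0.27, -0.13 and -0.13 in no DOX mice, and the interval of its log2 change of 0.00 ± 0.10 ran from -0.25 to 0.25. Fzd3 was similarly bounded, from -0.34 to 0.26, around -0.04. Fzd1 had 1 no DOX array, replicate 3, at 1.91 while the other 5 arrays lay between 1.09 and 1.33, and its log2 change of -0.16 was 0.09 without that array. The signs of Fzd3, Fzd7, Fzd8 and Fzd9 also turned when single arrays were left out.

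Of the secreted Frizzled-related proteins, Sfrp1, a Wnt-binding antagonist expressed by stromal and epithelial cells, read -1.17, -1.03 and -0.95 in DOX mice and -0.40, -0.58 and -0.34 in no DOX mice. Both groups were tight and did not overlap, beside 12.6% of all features for that direction. The mean was -1.05 ± 0.11 in DOX mice and -0.44 ± 0.13 in no DOX mice (SD, n = 3 each). The log2 change of -0.61 ± 0.12, a 1.53-fold lower mean with an interval from -0.89 to -0.33, was the closest of all members to the threshold and did not pass (limma, adjusted p = 0.0861). Sfrp4, a matrix-associated member of the family, read 1.07, 1.27 and 0.39 in DOX mice and 1.63, 1.46 and 1.49 in no DOX mice. The no DOX arrays lay close together above all DOX arrays, with DOX replicate 3 the lowest, for a log2 change of -0.62 ± 0.23 (adjusted p = 0.228), and -0.36 without that array. Sfrp2, a fibroblast product, read -3.46, -1.69 and -1.74 in DOX mice and -0.92, -1.76 and -1.24 in no DOX mice. The fibroblast collagens Col3a1, Col1a2 and Col1a1 had lower means in DOX mice, as given above, while the other fibroblast markers had log2 changes from -0.13 to 0.14. A link between Sfrp2 and these markers was not tested. The Sfrp2 log2 change of -0.99 ± 0.50 (adjusted p = 0.340) was the largest of the set, and DOX replicate 1 decided its size, since the value was -0.41 without that array. With normexp background correction it was -0.55. Sfrp5 had the opposite sign, at 1.92, 2.66 and 1.32 in DOX mice and 2.07, 1.30 and 1.58 in no DOX mice, with overlap and a log2 change of 0.32 ± 0.36 (adjusted p = 0.693), which became -0.03 without DOX replicate 2 and 0.64 without DOX replicate 3.

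Both tested Dickkopf genes had all DOX values below all no DOX values, beside 12.6% of all features. Dkk3, a divergent member of the family, read 2.51, 2.58 and 3.26 in DOX mice and 3.57, 3.38 and 3.33 in no DOX mice. DOX replicate 3 came close to the no DOX arrays, and the log2 change was -0.64 ± 0.21, a 1.56-fold lower mean with an interval from -1.15 to -0.13 (limma, adjusted p = 0.195). Dkk2, which binds Lrp6 and can act for or against Wnt signalling, was dim at -3.83, -3.50 and -3.81 in DOX mice and -3.50, -3.49 and -2.79 in no DOX mice. DOX replicate 2 and no DOX replicate 1 were nearly equal, and the log2 change was -0.46 ± 0.22 (adjusted p = 0.323), with -0.14 under normexp and -0.22 without no DOX replicate 3. Dkk1, the best known inhibitor of Lrp5 and Lrp6, and Dkk4 did not clear background on any of the 6 arrays.

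Axin2 and Lef1 are both targets of beta-catenin, Axin2 encoding a scaffold of the destruction complex that limits the signal and Lef1 a DNA-binding partner of beta-catenin. Axin2 read -3.08, -3.08 and -3.39 in DOX mice and -3.25, -3.35 and -3.65 in no DOX mice. The groups overlapped, and the log2 change of 0.23 ± 0.15 had an interval from -0.14 to 0.60 (limma, adjusted p = 0.464). It was 0.11 without no DOX replicate 3 and 0.096 under normexp. The tested Axin2 probe was dim, and the gene's other probe did not clear background on any array. Lef1 read 0.18, 0.45 and 0.45 in DOX mice and 0.42, 0.87 and 1.64 in no DOX mice. The no DOX arrays were far apart, with replicate 3 the highest and replicate 1 below 2 of the DOX arrays. The log2 change of Lef1, -0.62 ± 0.30 (interval -1.34 to 0.11, adjusted p = 0.327), had the opposite sign to that of Axin2, and the other Lef1 probe gave -0.50. Without no DOX replicate 3 the log2 change of Lef1 was -0.28. Neither target passed the test, and the intervals leave room for changes of either sign.

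The 11 members that were not tested were the ligands Wnt2, Wnt2b, Wnt3a, Wnt7a, Wnt8a, Wnt8b and Wnt9b, together with Dkk1, Dkk4, Rspo2 and Lgr6. Wnt9b was well above background on 2 DOX arrays and 1 no DOX array, Lgr6 on 1 no DOX array, and the other 9 on none. For those 9 genes the arrays give only an upper bound on the signal. The same holds for Wnt9b and Lgr6 on the arrays where they were not well above background. Among the 9 members with several probes, Fzd5, Fzd7, Lef1 and Wnt4 had 2 tested probes, and Fzd7 was the gene whose probes differed in sign, at 0.00 and -0.12.

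Over the 34 tested members the arrays of a group did not stand in 1 order. DOX replicate 1 had the lowest DOX value for 17 members and the highest for 4, while DOX replicate 2 had the highest for 19 and the lowest for 2. DOX replicate 3 was the highest for 11 and the lowest for 15. In no DOX mice the highest value came from replicate 3 for 16 members, from replicate 1 for 11 and from replicate 2 for 7. The median deviation from a gene's mean over the 6 arrays was -0.15, 0.09 and -0.07 in DOX replicates 1, 2 and 3, against 0.04, 0.00 and 0.11 in no DOX replicates 1, 2 and 3. Over all features the same medians lay within -0.01 to 0.01 on every array.

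**Figure D3:**
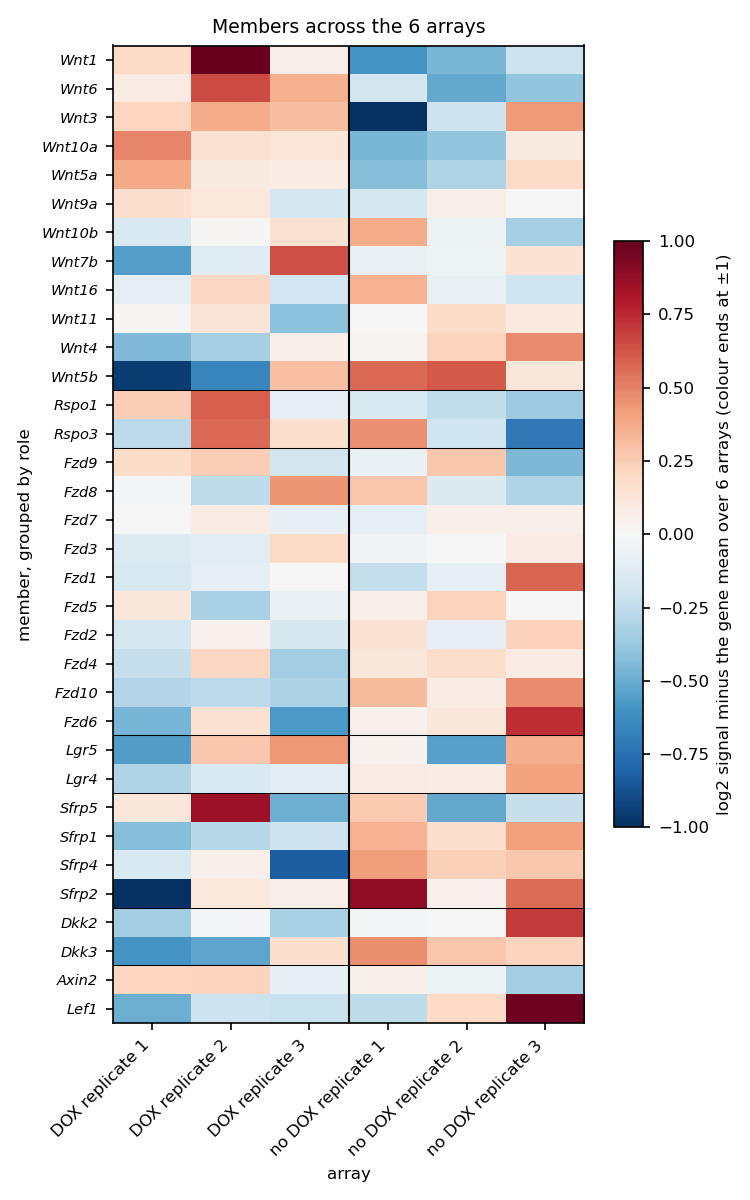
Normalised log2 signal of each tested member minus its mean over the 6 arrays (colour, red above and blue below, ends at 1 in either direction), with DOX arrays left of the line, no DOX arrays right of it, and members grouped by role. DOX replicate 1 is the lowest DOX array for 17 of the 34 members and DOX replicate 2 the highest for 19.

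The rest of the Wnt pathway was read from 126 further genes in 8 lists, of which 121 were on the array and 108 were tested. None passed (limma, adjusted p under 0.05, background 0.404%), 6 (5.56%) were higher and 12 (11.1%) lower at an unadjusted p under 0.05, beside 9.05% and 9.58% of all features, and 26 (24.1%) had groups that did not overlap, beside 25.4% of all features. Their median log2 change was -0.05. The smallest adjusted p was 0.0777, for Ccn2, a matricellular gene reported as a Wnt target and also driven by other pathways, which read 2.82, 3.14 and 2.79 in DOX mice and 2.22, 2.14 and 1.89 in no DOX mice. All DOX values lay above all no DOX values, for a log2 change of 0.84 ± 0.15, which passed with another background correction (0.78, adjusted p = 0.0422). Of 23 tested target genes, 14 had the higher mean in DOX mice and 9 the lower. The groups did not overlap for 4 (17.4%), all higher, beside 12.7% of all features for that direction, and no direction is read from this. Ccnd1, the cell cycle gene cyclin D1, read 3.95, 4.04 and 4.49 in DOX mice and 3.45, 3.11 and 3.46 in no DOX mice (log2 change 0.82 ± 0.18, adjusted p = 0.104). Fgf9, a growth factor, had a log2 change of 0.85 ± 0.28 (adjusted p = 0.186), and 0.51 under normexp.

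Among 16 tested nuclear factors, Tcf7, a TCF/LEF factor of the same family as Lef1, read -2.49, -2.61 and -2.56 in DOX mice and -3.74, -3.42 and -3.01 in no DOX mice. Its log2 change was 0.84 ± 0.19 without overlap (limma, adjusted p = 0.108), and 0.31 under normexp. Tcf7l1, a family member that mostly represses, and the co-repressor Tle2 had lower means in DOX mice without overlap, by -0.45 ± 0.14 and -0.51 ± 0.14 (adjusted p 0.174 and 0.140). Of the 16 nuclear factors, 1 was higher and 5 were lower without overlap (37.5%), beside 25.4% of all features. No direction is read from this. In the 26 tested genes of the destruction complex and its partners, Amer1, a membrane anchor of the complex, had a log2 change of -0.47 ± 0.12 (adjusted p = 0.127), Dact2 of -0.64 (adjusted p = 0.253, and -0.28 under normexp) and Gsk3b, the kinase that marks beta-catenin for degradation, of -0.22 (adjusted p = 0.285).

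For the 6 tested genes of ligand release and modification, Notum, an enzyme that removes the lipid from Wnts, read 2.73, 2.98 and 2.96 in DOX mice and 2.32, 2.47 and 2.44 in no DOX mice, a log2 change of 0.48 ± 0.12 (limma, adjusted p = 0.120). Wls, the carrier that brings Wnts to the cell surface, read 1.19, 1.16 and 1.29 in DOX mice and 1.67, 1.52 and 1.61 in no DOX mice, a log2 change of -0.38 ± 0.10 (adjusted p = 0.135). The groups of both did not overlap and lay in opposite directions. Of the 6 genes, 1 was higher and 2 were lower without overlap (50%), beside 25.4% of all features. No direction is read from so small a list. Gpc3, a glypican that binds Wnts, had -0.45 (adjusted p = 0.178). Of the 9 tested co-receptors and other receptors, Kremen2, a Dickkopf receptor, had -0.52 ± 0.12 (adjusted p = 0.117, and -0.29 under normexp), Ror2, the Wnt5a receptor, 0.28 (adjusted p = 0.290) and Lrp6 -0.25 (adjusted p = 0.306). The membrane ubiquitin ligases Rnf43 and Znrf3, which remove Frizzled receptors and are the targets of R-spondins, had -0.21 and 0.23 (adjusted p 0.349 and 0.449).

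In the planar polarity list, 19 genes were tested, and Celsr1, Daam1 and Invs had log2 changes of -0.39, -0.44 and 0.20 (limma, adjusted p 0.186, 0.254 and 0.346). None of the 7 tested secreted modulators outside the members had an unadjusted p under 0.05 or groups that did not overlap, and those with the smallest p were Wif1 at 0.60 (0.39 under normexp), Sostdc1 at -0.24 and Frzb at 0.18 (adjusted p up to 0.822).

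**Figure D4:**
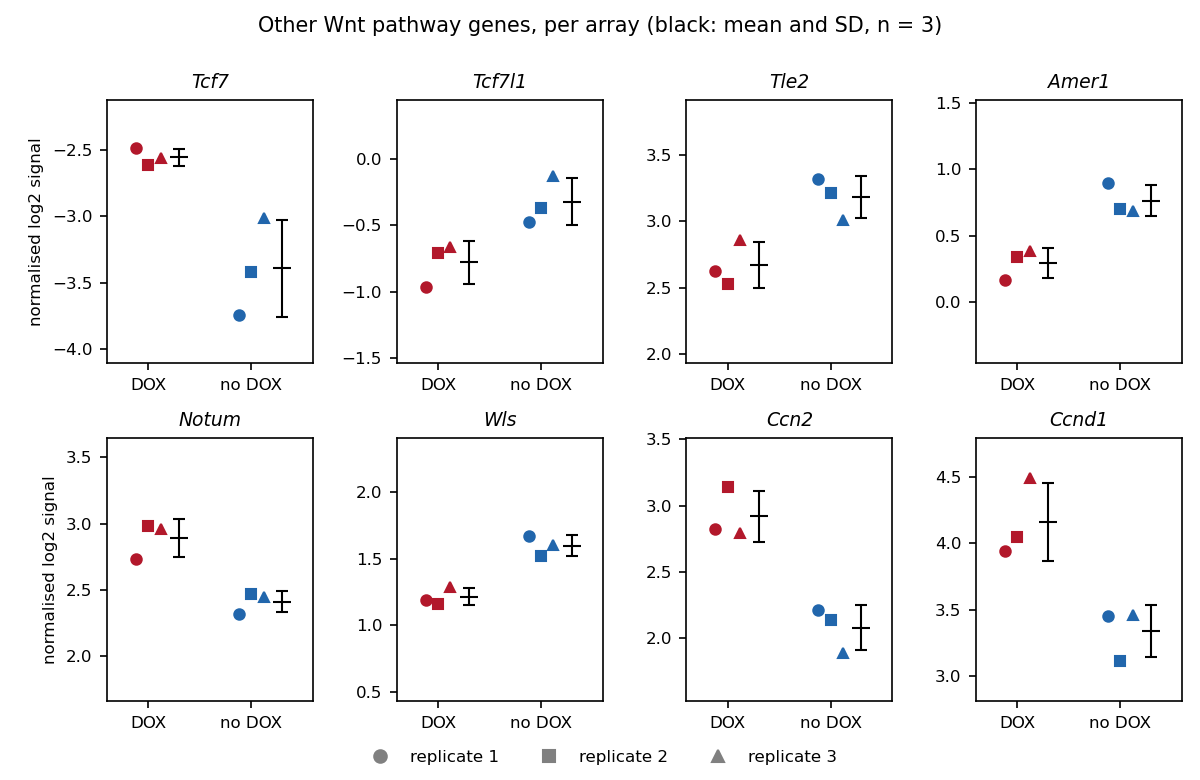
Normalised log2 signal of 8 pathway genes outside the members, 1 point per array with DOX mice left and no DOX mice right in each panel, marker shape giving the replicate number and black marks the mean and SD (n = 3). DOX values lie above no DOX values for Tcf7, Notum, Ccn2 and Ccnd1 and below them for Tcf7l1, Tle2, Amer1 and Wls, and no gene shown passed the test. The 8 genes were chosen after their values were seen. Of all 108 tested pathway genes, 26 (24.1%) had groups that did not overlap, beside 25.4% of all features.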

How the data were processed

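Cy3-labelled RNA of 6 tongues was hybridised to Agilent SurePrint G3 mouse arrays, 1 colour each, per the labels' protocols. Each deposited scanner file gives a linear, background-subtracted intensity per spot. Per the file headers and the submitters' processing notes, the software was Agilent Feature Extraction, version 11.5.1.1. The deposited series value table is that processed intensity times 1 factor per array (3.70 to 3.99), and no source used here explains the factor. Column medians of the table were 90.0, 97.5 and 93.7 in DOX and 102.5, 94.2 and 92.7 in no DOX arrays. All arrays shared 1 slide and 1 scan. DOX replicates 2 and 3 lay in row 2 of the slide, and the other 4 arrays in row 1. The row was read from the second part of the barcode in each file header. Since row 2 held DOX arrays only, slide row and DOX are partly confounded, and a row effect was not tested. The labels describe separate mice, and groups were taken from the treatment label.

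Outlier spots (146 to 195 per array) were left out, the log2 processed signal was averaged per probe, and each array's 75th percentile (a processed signal of 245.6 to 263.8) was subtracted. Gene symbols came from RefSeq accessions in a GRCm38.p6 gene table, which matched 28331 probes to 1 symbol and 27350 to none. The arrays were annotated on mm9, so no gene coordinates beyond the promoter windows are given. A probe was tested if it cleared background on every array of either group. The test was two-sided, with lmFit and eBayes of limma 3.58.1 (R 4.3.3), with Benjamini-Hochberg adjustment over all tested probes. A gene with several tested probes took its brightest. The code was tested on simulated data. Log2 changes are given ± standard error. The intervals are at 95% and are not adjusted for multiple tests.

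Values per array were given for the 16 members with the smallest p, the 6 brightest, Axin2, Lef1 and the Lgr receptors. Pathway genes were named by the 3 smallest p per list. Further values, such as those of Wnt3, Wnt7b, Fzd7, Fzd3 and Fzd1, the single marker genes and the 8 plotted pathway genes, were chosen after their values were seen. The members and lists were chosen with earlier results of these data known. Replicate numbers were not used as pairs in the main test. Same-numbered arrays had correlations of deviations of -0.12, -0.01 and 0.01, beside -0.14 to 0.15 for the other pairs. So few values cannot decide whether the numbers pair the mice. Results were recomputed with another background correction, scaling, value source, filter, variance model, probe rule or threshold, with array weights, with a replicate block, and without each array. Normexp, planned on the mean signal, was run on the median signal because the files used here hold no mean signal column. Its offset was 50, which by itself shrinks the log2 changes of dim probes. A smaller change of a dim gene under normexp is therefore no separate evidence about that gene.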

Additional observations from a re-analysis of the deposited data

How the results depend on the processing

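The number of Wnt members past an adjusted p of 0.05 (limma) was 0 under every alternative, and 1, Sfrp1, at an adjusted p under 0.1. The smallest adjusted p of a member ran from 0.0570 with normexp to 0.228 without no DOX replicate 1. The number at an unadjusted p under 0.05, 11 as reported, ran from 5 to 12. The median log2 change of the members, -0.04 as reported, was -0.16 over probes well above background on all 6 arrays, which left 31 members, and -0.11 to -0.01 when 1 array was left out. Among other pathway genes 1 passed with normexp, Ccn2 (0.78). Over all features, 106 passed as reported, 246 with normexp, 192 with trend and robust settings, 272 with array weights, 1 with no filter on dim probes, which tested 48718 features, 747 at an adjusted p under 0.1, and 0 to 48 when 1 array was left out. With the replicate block 0 features and 0 members passed, and the smallest adjusted p of a member was 0.184. The correlations of same-numbered arrays given above are too few to decide whether the numbers pair the mice. Among tested members and named pathway genes, signs turned when 1 array was left out for Lgr5 (-0.15 to 0.40), Sfrp5 (-0.026 to 0.64), Wnt7b (-0.34 to 0.25), Wnt10b (-0.16 to 0.19), Wnt16 (-0.16 to 0.12), Fzd1 (-0.32 to 0.088), Fzd3 (-0.15 to 0.021), Fzd7 (-0.047 to 0.044), Fzd8 (-0.084 to 0.28), Fzd9 (-0.021 to 0.34), Sostdc1 (-0.46 to 0.027) and Frzb (-0.12 to 0.46). They also turned with normexp for Fzd8 (-0.024), Fzd3 (0.014) and Wnt7b (0.061), with quantile normalization for Wnt10b (-0.0081), with array weights for Wnt10b (-0.050) and Fzd7 (-0.0015), and for Fzd7 with the array median (-0.00059) or the mean over its probes (-0.061). The normexp offset shrinks the log2 changes of dim probes by construction. Beyond that, the cause of these differences was not tested. Signals near background are bounds.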
